A study of Homo sapiens with 4 samples.

Results

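Cells sense a shortage of oxygen through the hypoxia-inducible factors (HIFs), and 10 genes of this response were followed in 2 human leukemia cell lines given periplocin, a cardiac glycoside from Cortex periplocae. The genes were VEGFA and VEGFB, 2 secreted growth factors of the vascular endothelial growth factor family, HIF1A and EPAS1, which encode the oxygen-regulated subunits of the factors, EGLN1 and EGLN3, which encode prolyl hydroxylases, and ADM, NDRG1, BNIP3 and ANKRD37, which are induced in hypoxia in many cell types. They were taken by symbol from the deposited table, which lists 20348 genes by Ensembl identifier, and all 10 were found. K562 cells come from a chronic myeloid leukemia and THP-1 cells from an acute leukemia of monocytic type. Both lines were kept under normoxic conditions for 72 h in DMSO, the solvent, or in 100 nM periplocin, which gives 4 groups with 1 poly-A RNA library in each. No genetic change was made in any group, and the sample titles call the DMSO controls blank.

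When oxygen is sufficient, the EGLN enzymes hydroxylate the HIF alpha subunits, and the VHL ubiquitin ligase then marks them for destruction. When oxygen or iron is short, the alpha subunits persist, pair with ARNT and bind hypoxia response elements, which share a core of 5 bases, ACGTG or GCGTG. This control acts on the HIF proteins, so the mRNA level of HIF1A or EPAS1 is not a measure of HIF activity. VEGFA is a textbook target of these factors and also answers to other stress and growth signals.

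RefSeq promoter sequences on GRCh38.p14 were found for 8 of the 10 genes, all but VEGFA and NDRG1, with 2 alternative starts for HIF1A. The 250 bases before the start were searched for ACGTG and GCGTG on both strands. At least 1 match was present for 7 of the 8 genes. By promoter entry it was 7 of 9, against 43.2% of all 35116 entries searched in the same window. Those of BNIP3 and ANKRD37, which held the most matches, and that of EPAS1, the HIF subunit gene whose level moved most, are shown 5′ to 3′ on the strand of the gene, with the matched bases in capitals. The stretches are chr10:131981924-131982173 on the minus strand for BNIP3, chr4:185396591-185396840 on the plus strand for ANKRD37 and chr2:46297157-46297406 on the plus strand for EPAS1. For all 3 the GENCODE gene, which spans every annotated transcript, begins upstream of this RefSeq start.
BNIP3: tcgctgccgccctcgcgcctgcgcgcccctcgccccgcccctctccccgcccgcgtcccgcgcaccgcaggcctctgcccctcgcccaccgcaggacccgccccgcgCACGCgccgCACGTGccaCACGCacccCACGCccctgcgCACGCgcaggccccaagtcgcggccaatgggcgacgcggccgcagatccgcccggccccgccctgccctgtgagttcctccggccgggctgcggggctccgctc
ANKRD37: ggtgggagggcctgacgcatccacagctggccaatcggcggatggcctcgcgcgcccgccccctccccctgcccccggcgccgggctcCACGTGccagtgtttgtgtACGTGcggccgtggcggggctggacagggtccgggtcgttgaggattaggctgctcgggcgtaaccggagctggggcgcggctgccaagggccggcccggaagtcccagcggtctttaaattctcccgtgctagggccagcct
EPAS1: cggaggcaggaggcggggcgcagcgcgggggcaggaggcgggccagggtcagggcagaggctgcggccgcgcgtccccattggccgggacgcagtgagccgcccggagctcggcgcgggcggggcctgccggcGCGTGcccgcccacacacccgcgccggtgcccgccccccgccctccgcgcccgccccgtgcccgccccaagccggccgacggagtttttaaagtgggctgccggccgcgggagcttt
BNIP3 held 6 matches between 143 and 100 bases before its start, a number reached by 0.646% of all entries. ANKRD37 held 3, and 2 or more were found in 19.4% of entries. In both, one pair of matches is a single CACGTG, which reads the same on both strands and is also the E-box bound by the MYC family. It occurred in 6.34% of all entries. EPAS1, ADM, EGLN1, VEGFB and the upstream start of HIF1A held 1 match each, and EGLN3 and the downstream start of HIF1A held none in this window. A match is a run of letters and was not tested as a binding site.

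**Figure D1:**
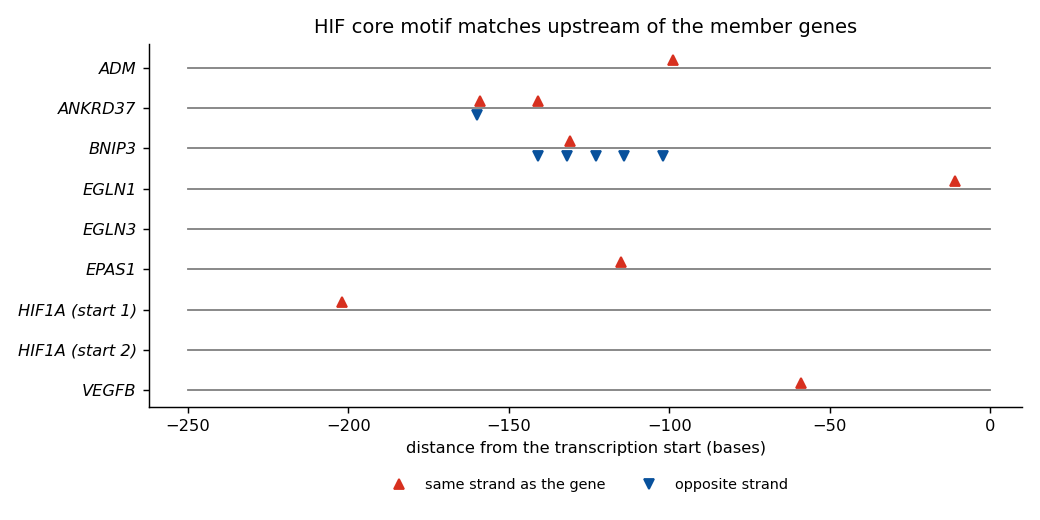
Matches to the HIF core motif in the 250 bases before each RefSeq transcription start, by distance from the start in bases, with triangles for the strand of each match. The 6 matches of BNIP3 lie together between 143 and 100 bases upstream, whereas EGLN3 and the downstream start of HIF1A have none.

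Levels are given as CPM, the rounded expected count of a gene per 1000000 counts of its library, and library totals were between 16381149 and 20622694. Intervals in the text are 95% intervals that cover counting error only. Because each condition has 1 library, no difference has a replicate check, and the spread between cultures is unknown. A gene was called higher or lower when it differed by at least 2-fold (an absolute log2 ratio of at least 1) with an interval that left out 0. Tested genes had 10 or more counts on average over the pair of libraries. As a check of the lines, all 12 erythroid markers were called lower in THP-1 DMSO than in K562 DMSO. Of 13 monocytic markers, 11 were tested in that comparison, and all 11 were called higher in THP-1. Of all genes tested there, 23.6% were called lower and 22.0% higher. In K562 the erythroid markers summed to 2941 CPM in DMSO and 11546 in periplocin, and 11 of 12 were called higher. Monocytic markers in THP-1 summed to 2045 and 2727 CPM, and 5 of 13 were called higher and 1 lower. Some of those called higher had 8 counts in DMSO and reached the count minimum only through the periplocin library. Of all genes tested, 9.65% were called higher in K562, and 8.61% were called higher and 11.3% lower in THP-1. Mitochondrially encoded genes took 5.62% of counts in DMSO and 2.07% in periplocin for K562, and 5.24% and 3.92% for THP-1. The part of these shifts in the results that follow was not tested, and in bulk RNA fewer cells of a type and less RNA per cell cannot be told apart.

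VEGFA fell in K562 and not in THP-1. On GRCh38 the gene spans bases 43770184 to 43786487 of chromosome 6, plus strand. Its level was 633 CPM (interval 621 to 645) in K562 DMSO, 185 CPM (179 to 192) in K562 periplocin, 106 CPM (102 to 111) in THP-1 DMSO and 156 CPM (150 to 162) in THP-1 periplocin. K562 in DMSO thus stood far above the other 3 libraries, and in periplocin the lines were close. In K562 the level was 3.42-fold lower with periplocin, from 10371 to 3068 counts, a log2 ratio of -1.77 (interval -1.83 to -1.71), and 4.19% of the genes tested had a lower ratio. In THP-1 the counts were 2196 and 2769, and the log2 ratio was 0.55 (0.47 to 0.63), short of 2-fold. The THP-1 ratio exceeded the K562 ratio by 2.33 on the log2 scale (2.23 to 2.43).

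VEGFB, a relative of VEGFA that is not a typical hypoxia target, did not follow it. Its level was 38.9 CPM in K562 DMSO, 53.8 CPM in K562 periplocin, 16.7 CPM in THP-1 DMSO and 18.2 CPM in THP-1 periplocin. The log2 ratio was 0.47 (0.32 to 0.62) in K562, and in THP-1 it was 0.12 with an interval of -0.10 to 0.34 that includes 0. Thus in K562 VEGFA was lower while VEGFB was slightly higher.

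EPAS1, the gene of HIF-2 alpha, rose in THP-1 and was the member with the largest change there. The gene spans bases 46293667 to 46386703 of chromosome 2, plus strand. Its level was 107 CPM (102 to 112) in K562 DMSO, 74.7 CPM (70.6 to 79.0) in K562 periplocin, 102 CPM (98.1 to 107) in THP-1 DMSO and 334 CPM (326 to 343) in THP-1 periplocin. The lines were alike in DMSO within counting error, with a log2 ratio of -0.07 (-0.16 to 0.03), and with periplocin THP-1 was the highest library and K562 the lowest. In THP-1 the level was 3.26-fold higher with periplocin, from 2113 to 5924 counts, a log2 ratio of 1.71 (1.63 to 1.78), above 96.3% of the genes tested. In K562 the log2 ratio was -0.52 (-0.63 to -0.42), from 1758 to 1237 counts, short of 2-fold. The THP-1 ratio exceeded the K562 ratio by 2.23 (2.10 to 2.36), so EPAS1 and VEGFA were both lower in K562 and higher in THP-1.

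HIF1A, the gene of HIF-1 alpha, differed more between the lines than with treatment. Its level was 49.1 CPM in K562 DMSO, 75.0 CPM in K562 periplocin, 128 CPM in THP-1 DMSO and 145 CPM in THP-1 periplocin. Both THP-1 libraries lay above both K562 libraries. The log2 ratio of periplocin over DMSO was 0.61 (0.48 to 0.74) in K562 and 0.19 (0.11 to 0.27) in THP-1, and neither reached 2-fold. HIF1A overlaps the antisense genes HIF1A-AS1 and HIF1A-AS2 in GENCODE release 29, and VEGFA, BNIP3 and EGLN3 also have antisense partners. The counting is not stated to use strand, so reads of these partners cannot be told apart from those of the gene.

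The hydroxylase genes differed in kind. EGLN1, which encodes PHD2, the main oxygen sensor of the pathway, had 51.5 CPM in K562 DMSO, 88.7 CPM in K562 periplocin, 232 CPM in THP-1 DMSO and 318 CPM in THP-1 periplocin. As for HIF1A, both THP-1 libraries lay above both K562 libraries. Its log2 ratio was 0.78 (0.66 to 0.91) in K562 and 0.45 (0.40 to 0.51) in THP-1, below 2-fold in both. Its deposited counts are not whole numbers, so they are estimates in which reads can count in part.

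EGLN3, which encodes PHD3 and is itself a HIF target, was above the floor of 3 counts in K562 only. K562 gave 142 counts in DMSO and 186 counts in periplocin, and THP-1 gave 0 counts in DMSO and 3 counts in periplocin. The K562 levels were 8.67 CPM and 11.2 CPM, a log2 ratio of 0.37 (0.05 to 0.70). With the 0 counts of THP-1 DMSO set at that floor, per library, the level was at least 59.6-fold lower there than in K562 DMSO. No ratio was taken within THP-1, where both libraries were at or under the floor. EGLN3 also overlaps SPTSSA on the same strand.

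NDRG1, a stress gene induced by hypoxia and by iron depletion, was the member with the largest rise in K562. Its level was 17.8 CPM in K562 DMSO, 36.1 CPM in K562 periplocin, 23.9 CPM in THP-1 DMSO and 37.4 CPM in THP-1 periplocin. Each periplocin library lay above both DMSO libraries. The log2 ratio was 1.02 (0.81 to 1.23) in K562 and 0.65 (0.48 to 0.82) in THP-1. The K562 value sits on the 2-fold limit, and the call was lost, at 0.97, when mitochondrially encoded genes were left out of the totals and, at 0.98, when 1 CPM was added before the logarithm.

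BNIP3, which encodes a mitochondrial outer membrane protein that promotes mitophagy, was at a similar level in all 4 libraries. Its level was 36.0 CPM in K562 DMSO, 45.8 CPM in K562 periplocin, 33.7 CPM in THP-1 DMSO and 28.5 CPM in THP-1 periplocin. The log2 ratio was 0.35 (0.19 to 0.51) in K562 and -0.24 (-0.41 to -0.07) in THP-1, so the signs were opposite and neither reached 2-fold.

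ADM and ANKRD37 were too low to show a change. ADM, which encodes the vasodilator peptide adrenomedullin, had 11, 18, 1 and 5 counts in K562 DMSO, K562 periplocin, THP-1 DMSO and THP-1 periplocin. ANKRD37, an ankyrin repeat protein gene and a HIF-1 target, had 11, 16, 5 and 6 counts in the same order. In K562 their log2 ratios were 0.69 for ADM, with an interval of -0.47 to 1.92, and 0.52 for ANKRD37, with an interval of -0.67 to 1.78. A change of 2-fold was therefore not detectable at this depth. The deposited counts of ANKRD37 are also not whole, and it overlaps UFSP2 on the opposite strand.

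**Figure D2:**
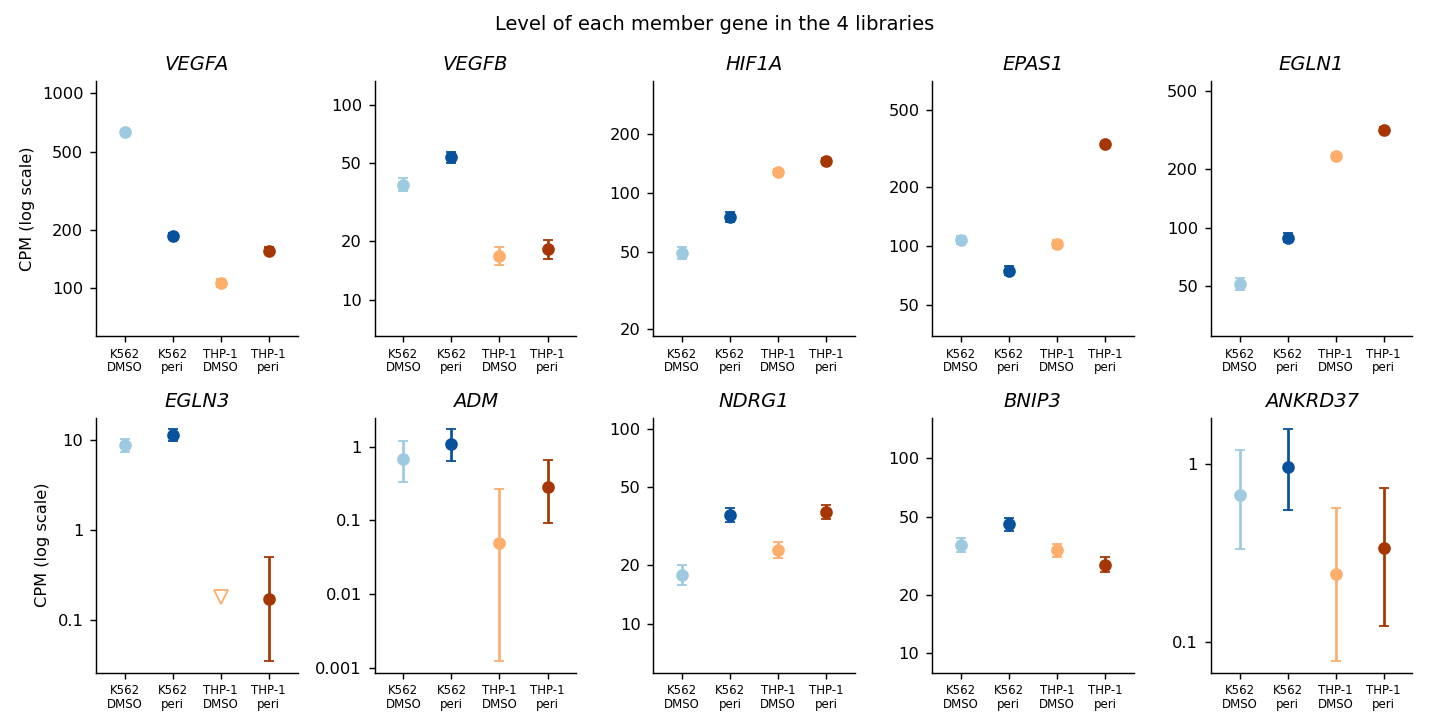
CPM on a log scale for each of the 10 genes in the 4 libraries, with 95% counting intervals as bars and an open triangle at the upper limit where the count was 0. VEGFA is highest in K562 DMSO at 633 CPM, EPAS1 is highest in THP-1 periplocin at 334 CPM, and EGLN3 is near 10 CPM in K562 and at or under 3 counts in THP-1.

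Over the 10 genes in K562, 1 was called lower, VEGFA, and 1 higher, NDRG1. Of all 12399 genes tested in K562, 11.7% were called lower and 9.65% higher, so 2 members called of 10 was close to the share of genes in general. In THP-1, 7 members had enough counts, and only EPAS1 was called, as higher, against 8.61% of 12989 genes called higher and 11.3% lower. Most signs were positive. In K562, 8 of 10 ratios were above 0, 6 of them with intervals that left out 0, and in THP-1, 6 of 7 were above 0, 5 of them with such intervals. These counts include the called members. Among all genes tested, 38.2% in K562 and 36.1% in THP-1 had an interval above 0, and 37.8% and 39.2% had one below 0. The median log2 ratio of the tested members was 0.50 in K562 and 0.45 in THP-1, where the median of all genes tested was 0.00 and -0.04.

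**Figure D3:**
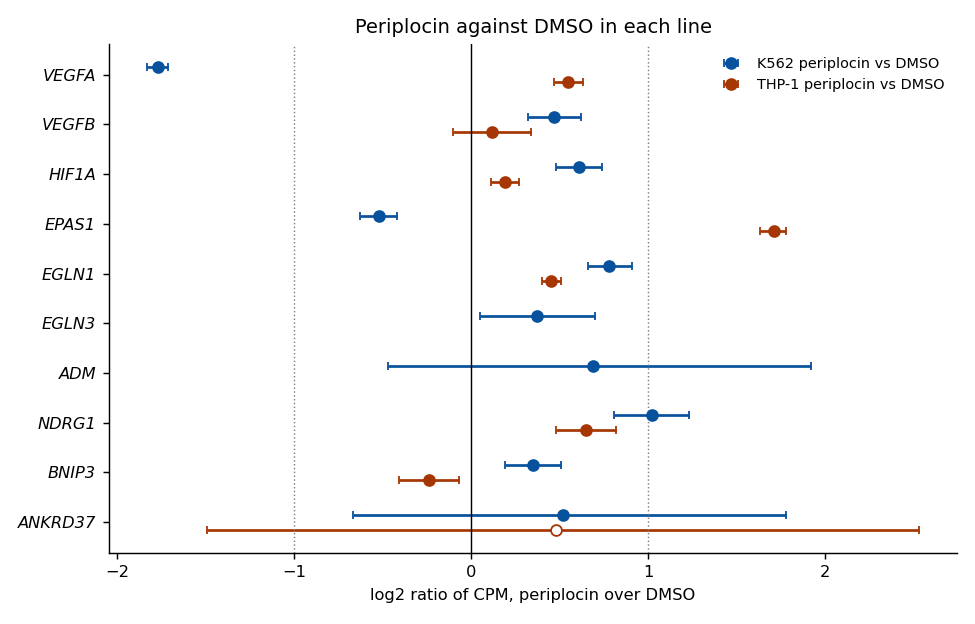
Log2 ratio of CPM, periplocin over DMSO, for each gene in K562 (blue) and THP-1 (brown), with 95% counting intervals, dotted lines at 2-fold and an open circle for a gene under the count limit. VEGFA at -1.77 in K562 and EPAS1 at 1.71 in THP-1 lie well outside 2-fold, and NDRG1 at 1.02 in K562 lies on it. EGLN3 and ADM have no THP-1 point because a library was at or under 3 counts.

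The responses of the lines differed by at least 2-fold for VEGFA and EPAS1 among the 7 members compared, where 21.7% of 11337 genes did. Opposite signs, with both intervals leaving out 0, were found for 3 of the 7, VEGFA, EPAS1 and BNIP3, and for 19.8% of all genes compared. For the other 5, VEGFB, HIF1A, EGLN1, NDRG1 and BNIP3, the difference was between -0.59 and -0.33, with the higher ratio in K562. A ratio lower in K562 and higher in THP-1, with both intervals leaving out 0, was found for 9.61% of all genes.

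One model fitted to all 4 libraries, with a term for line and a term for periplocin, asks whether a gene changed alike in both lines. Its error is how far the lines disagree, with 1 residual degree of freedom. By edgeR's quasi-likelihood test, 0 of 13584 genes (0.0%) passed an adjusted p of 0.05, while 1535 had an unadjusted p under 0.05, and DESeq2 with the same terms called 131 genes (0.964%). The DESeq2 share is of all 13584 genes, and DESeq2 gave no adjusted p for 2371 of them, ADM and ANKRD37 included. No member with an adjusted p passed by either tool. The lowest adjusted p among the members was 0.430 for NDRG1 in edgeR's quasi-likelihood test, with a log2 fold change of 0.84, higher in both lines, and the unadjusted p was 0.0439. Over the alternatives, the adjusted p of NDRG1 by edgeR or DESeq2 was between 0.428 and 0.544. For VEGFA the log2 fold change was -0.60 with an adjusted p of 0.719, and for EPAS1 it was 0.60 with an adjusted p of 0.706, in the same edgeR test, in which opposite responses count as error.

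In DMSO the lines already differed in most members. Relative to K562, THP-1 was called higher for HIF1A (log2 ratio 1.38, interval 1.26 to 1.49) and EGLN1 (2.17, interval 2.07 to 2.28). It was called lower for VEGFA (-2.57, interval -2.64 to -2.51), VEGFB (-1.22, interval -1.41 to -1.03) and EGLN3. Of the 8 members tested, these 5 were called, where 22.0% of 13441 genes were called higher and 23.6% lower. BNIP3, at -0.10 (-0.26 to 0.06), and EPAS1 did not differ beyond counting error. Scaling by TMM factors shifted every ratio between the lines by 0.12 on the log2 scale, and all 5 calls held.

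Divided by the length of all annotated exons, levels can be ordered between genes, but only as far as that length fits the transcripts present. For VEGFA the exons of 32 annotated transcripts cover 14431 bases, most of the gene span, and the longest transcript has 12167. If shorter forms prevail, its level per kb is understated with either length, and a place below another member may reflect the length. Which transcripts were present was not tested. In K562 DMSO, VEGFA was the highest member at 43.9 CPM per kb, followed by VEGFB at 25.2, EPAS1 at 14.7, HIF1A at 9.54, EGLN1 at 7.09 and BNIP3 at 6.76 CPM per kb. The intervals of EGLN1 and BNIP3 overlap, so their order is not resolved. NDRG1, EGLN3, ANKRD37 and ADM were below 2 CPM per kb, and the last pair could not be ordered. In K562 periplocin, VEGFB was highest at 34.8 CPM per kb, and VEGFA, at 12.8, stood below HIF1A at 14.6.

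In THP-1 DMSO the order began with EGLN1 at 32.0 CPM per kb and HIF1A at 24.8, and VEGFA, at 7.38, stood below EPAS1 and VEGFB as well. In THP-1 periplocin, EPAS1 at 45.8 CPM per kb took the first place beside EGLN1 at 43.7, with overlapping intervals. When each level was divided by the longest transcript in place of all exons, some members changed places in every library, BNIP3 with EGLN1 in both K562 libraries, ADM with ANKRD37 in K562 periplocin, and BNIP3 with VEGFA in THP-1 DMSO and with NDRG1 in THP-1 periplocin. The highest member of each library was unchanged.

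The genes whose levels over the 4 libraries were most like those of VEGFA were GFPT1, CYP2R1, IGFBP4, SLC35F6 and GAB2, out of 9775 genes averaging 10 CPM or more. Likeness was the distance between log2(CPM + 1) values centred on each gene's own mean, and it was between 0.18 and 0.25 for these 5. GFPT1, the entry enzyme of hexosamine synthesis, had 480 CPM in K562 DMSO, 151 CPM in K562 periplocin, 79.8 CPM in THP-1 DMSO and 107 CPM in THP-1 periplocin. It shares with VEGFA the single high library. With 4 libraries, likeness describes these samples only.

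The rest of the pathway was read from 4 lists. Of 15 genes of the HIF machinery, 13 had enough counts in each line. In K562, 1 was called, ELOB, which encodes elongin B of the VHL ligase, higher at a log2 ratio of 1.02 (0.86 to 1.18), and in THP-1 none was called. The ELOB value sits on the 2-fold limit. Leaving mitochondrially encoded genes out of the totals, which shifted every K562 ratio by -0.05, took it below. Of all genes tested, 9.65% were called higher and 11.7% lower in K562, and 8.61% and 11.3% in THP-1. The list's median log2 ratio was 0.00 in K562 and 0.11 in THP-1, and its values lay between -0.75 and 1.02 in K562 and between -0.27 and 0.78 in THP-1.

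Among 11 other VEGF ligands, VEGF receptors and adrenomedullin receptor genes, most were close to undetected. The main VEGFA receptor genes, KDR and FLT1, had at most 7 counts in any library. In K562 only FLT4 had enough counts, with 51 and 65. In THP-1 FLT4 had 14 and 5 counts, just under the count minimum. Only 3 of the 11 genes were tested there, NRP1, NRP2 and VEGFC. All 3 were called higher, where 8.61% of all genes tested were. NRP1, a VEGF coreceptor, rose from 98 to 325 counts in THP-1, a log2 ratio of 1.95 (1.62 to 2.29), and had 3 and 0 counts in K562. NRP2, a related coreceptor, had 8 and 44 counts in THP-1 and VEGFC, a lymphatic growth factor gene, had 13 and 36. Both are sparse, NRP2 reached the count minimum only through its periplocin library, and they were named after their values were seen.

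Among 35 other genes induced by hypoxia, 30 were tested in K562, with 4 called higher and 7 lower, where 9.65% and 11.7% of all genes were. All but NDRG2 of those called higher were sparse, with at most 51 counts in either K562 library. Those called lower included a gene with 25 and 12 counts. The list's median log2 ratio in K562 was 0.05, and that of all genes was 0.00. In THP-1, 29 were tested, with 7 called higher and 0 lower and a median of 0.43, where 8.61% and 11.3% of all genes were called and their median was -0.04. CA9, which encodes carbonic anhydrase 9 and is among the most specific HIF targets, had 0 counts in all 4 libraries, and the floor of 3 counts is 0.183 CPM in the shallowest. EPO, the erythropoietin gene, had at most 3 counts.

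Of the 27 genes of this list tested in both lines, 3 were called in opposite directions, as were 1.45% of all genes and 0 of the 7 members compared. STC2 and PPP1R3C were among the 3, lower in K562 and higher in THP-1. STC2, which encodes the secreted glycoprotein stanniocalcin 2, had 2477 and 772 counts in K562 (log2 ratio -1.70) but 75 and 310 counts in THP-1 (2.27). PPP1R3C, a glycogen-targeting phosphatase subunit gene, had 452 and 177 counts in K562 (-1.37) but 9 and 27 counts in THP-1 (1.80), where it was sparse and reached the count minimum only through the periplocin library. Their directions are those of VEGFA and EPAS1.

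Other genes of the list were called in 1 line. DDIT4, which encodes the mTORC1 inhibitor REDD1, fell in K562 from 524 CPM to 124 CPM (-2.07, interval -2.14 to -2.01) and was at 28.2 CPM and 27.9 CPM in THP-1. BHLHE40, a transcriptional repressor gene, was at 194 CPM and 195 CPM in K562 and rose in THP-1 from 15.1 CPM to 55.2 CPM (1.87). JMJD6 rose in THP-1 (1.40), and its K562 ratio of 0.70 was below 2-fold. NDRG2, a relative of NDRG1, rose in K562 from 18.7 CPM to 132 CPM (2.81), while its THP-1 ratio was -0.43. HMOX1, which encodes heme oxygenase 1, was called higher in both, with 4 and 16 counts in K562 (1.98, interval 0.35 to 4.02), which just reached the count minimum through the periplocin library, and 40 and 344 counts in THP-1 (3.32).

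The 22 glucose metabolism genes induced by hypoxia moved both ways. In K562, 5 were called higher and 5 lower, 45.5% in all, with a median log2 ratio of 0.23. In THP-1, 2 were called higher and 3 lower, 22.7% in all, with a median of -0.12. The share in THP-1 was near that of all genes given above, and the share in K562 was larger. The glucose transporter genes split in K562, where SLC2A1 rose from 150 CPM to 843 CPM (2.49, interval 2.43 to 2.55) and SLC2A3 fell from 243 CPM to 71.0 CPM (-1.78, interval -1.87 to -1.68). In THP-1, SLC2A1 was at 221 CPM and 140 CPM (-0.65), and SLC2A3 fell from 9.31 CPM to 4.01 CPM (-1.22).

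Genes called lower in both lines were SLC2A3, HK2, the hexokinase gene of many tumour lines, and PFKL, a phosphofructokinase gene. HK2 fell with log2 ratios of -1.12 in K562 and -1.08 in THP-1, and PFKL with -1.07 and -1.05. Of the glucose genes, ENO2, an enolase gene named after its values were seen, was called higher in both (1.21 and 1.65). How many of all genes were called alike in both lines was not counted, so these shared calls have no background share. PFKFB4 and ALDOC rose in K562, with log2 ratios of 2.13 and 1.71, and had -0.37 and -0.96 in THP-1. PKM, a pyruvate kinase gene, rose in THP-1 (1.29) and had -0.25 in K562. The glucose genes therefore shared no single direction in either line.

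**Figure D4:**
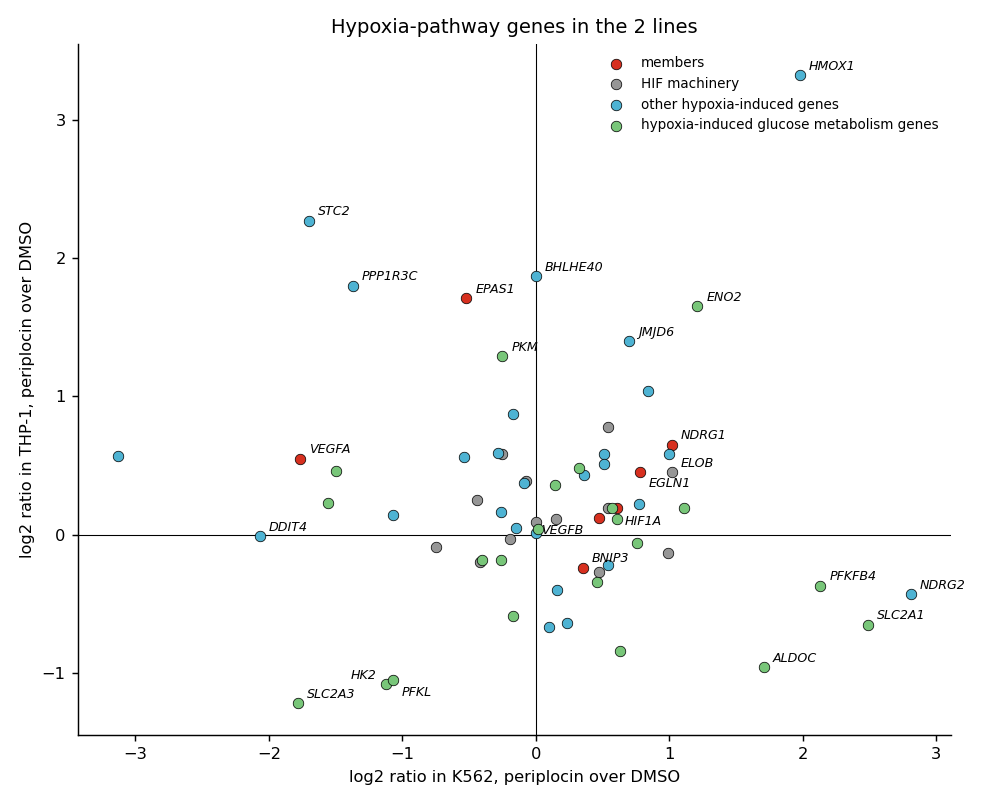
Log2 ratio of periplocin over DMSO in K562 (x axis) and THP-1 (y axis) for genes with enough counts in both lines, coloured by list, without 1 gene that is not reported here. VEGFA and EPAS1 lie in the upper left quadrant with STC2 and PPP1R3C, the glucose transporter gene SLC2A1 lies at the lower right, and the remaining members lie near the centre or to its upper right.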

How the data were processed

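RNA of 4 groups, K562 and THP-1 in DMSO or 100 nM periplocin for 72 h, was analysed, with 1 library per group in the labels and the dose and time from the study's methods. The authors deposited 1 table of expected counts per gene, estimated counts that are not normalized, and 87.4% to 88.3% of the values are whole. The submitters' processing notes name HISAT2, StringTie 1.3.1 and build hg38, and the annotation used for counting is not given in the sources used here. Expected counts were rounded and divided by library totals (CPM). Identifiers were matched to symbols for 20310 of 20348 genes, and lengths and positions came from GENCODE release 29 (GRCh38).

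Ratios have exact conditional binomial (Clopper-Pearson) 95% intervals, levels have exact Poisson ones, and differences between lines have normal ones, all for counting error only. Reads without molecular identifiers are not independent molecules, and 3 counts or fewer was the floor. The fit over 4 libraries used edgeR 4.0.16 (quasi-likelihood, TMM, 10 counts or more in 2 or more libraries) and, as the alternative, DESeq2 1.42.0, in R 4.3.3, with Benjamini-Hochberg adjustment, and was tested on simulated data. Python 3.11.15 with scipy 1.17.1 was used for the rest. Alternatives were other scalings, filters, folds and log2(CPM + 1).

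The members and the lists were chosen with earlier results of these data known. Besides the members, the text names called genes with the largest ratios in each list, at most 4 per list and line with a mean of at least 10 CPM over the pair, and the 5 genes nearest VEGFA. ENO2, NRP2, VEGFC, FLT4, FLT1, KDR, CA9 and EPO lie outside this rule and were named after their values were seen. Of the list genes counted, 1 is not reported by name. The other assays of the study were not analysed here.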

Additional observations from a re-analysis of the deposited data

Results flagged for a closer look

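Opposite responses in the 2 lines, with both counting intervals leaving out 0, were found for 10 of the named members and list genes. The genes nearest VEGFA were chosen for likeness to it and were not counted. Their log2 ratios were also below 0 in K562 and above 0 in THP-1. With 1 library per condition, the differences were not tested against replicates. Expressed as the THP-1 log2 ratio minus the K562 log2 ratio, the difference was 2.33 for VEGFA, 2.23 for EPAS1 and -0.59 for BNIP3 among the members. In the lists it was 3.96 for STC2, 3.17 for PPP1R3C, 1.54 for PKM, -3.25 for NDRG2, -3.15 for SLC2A1, -2.67 for ALDOC and -2.50 for PFKFB4. The list genes named here were picked for large ratios, so their number cannot be set against a share of all genes. Counted over every gene tested in both lines, opposite directions by the same measure were found for 3 of 7 members. In the lists they were found for 4 of 13 HIF machinery genes, 8 of 27 other hypoxia-induced genes and 8 of 22 glucose metabolism genes. Of all 11337 genes compared, 19.8% had opposite directions by that measure.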

How the results depend on the processing

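Member ratios were recomputed under other scalings and with 1 CPM added, and calls within the lines were lost for NDRG1 only. NDRG1 in K562 fell below 2-fold under 2 alternatives, leaving 1 member called there when mitochondrially encoded genes were left out or 1 CPM was added, and EPAS1 between the DMSO libraries, -0.07 as reported, was 0.05 with TMM and 0.06 with DESeq2 size factors. BNIP3 in that comparison, -0.10 as reported, was 0.03 with either, and EGLN3, called lower throughout, went from -5.90 to -3.27 with 1 CPM added. At a limit of 1.5-fold, 4 members were called in K562 and 2 in THP-1. The background shares then became 19.1% higher and 21.2% lower in K562 and 16.6% higher and 21.2% lower in THP-1. With a mean of at least 10 CPM they were 7.26% lower in K562 and 5.20% higher and 6.83% lower in THP-1, and 14 of the 22 genes called in the pathway lists for K562 were left, and 9 of the 15 for THP-1, as fewer genes were tested. In the fit over 4 libraries, 131 genes were called by DESeq2 and 1 by edgeR without a filter, against 0. The median log2 ratio of the VEGF receptor list in THP-1, 1.95 as reported, was 1.33 with 1 CPM added, and in K562 no gene of that list had a mean of 10 CPM. No paired analysis was possible because each group has 1 library and no replicate number, and the fit over 4 libraries already sets periplocin against DMSO within each line. Depth limits ADM, ANKRD37 and, in THP-1, EGLN3.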
